A study of Mus musculus with 6 samples.

Results

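The 41 genes described here encode proteins of the centrosome and of the microtubule nucleating machinery attached to it, together with genes whose loss causes primary microcephaly. They were taken from a fixed list of symbols, chosen with earlier results of these data known. All 41 were found among the 54146 genes of the count files. The libraries came from mouse cortex electroporated in utero at E14.5 (embryonic day) and sorted for green fluorescent protein (GFP) 24 hours later, at E15.5. In the Mir group, a GFP plasmid driven by the CAG promoter (0.7 µg/µl) was mixed with a plasmid that expresses a miR-3607 hairpin from the U6 promoter (1 µg/µl). The Scr group received the same GFP plasmid with the scrambled hairpin supplied with the vector, at the same concentrations. Each group held 3 libraries, each from the pooled cells of 2 embryos, and the embryos were wild type in both groups. The labels give the strain as ICR in one place and as C57BL/6 in another. Since the CAG promoter is active in most cell types, the sort keeps any cell that took up the plasmids, and the level of miR-3607 itself was not analysed here.

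The centrosome is a pair of centrioles surrounded by a pericentriolar matrix from which microtubules grow. Centrioles are copied once per cell cycle by a kinase, PLK4, and a cartwheel of STIL and SASS6, and in mitosis the matrix enlarges and organises the spindle poles. The γ-tubulin ring complex nucleates microtubules at the centrosome, and the augmin complex brings it to the sides of existing spindle microtubules. Radial glia, the apical progenitors of the cortex, divide at the ventricular surface with a centrosome at the base of their primary cilium, and mutations in many of these genes reduce the number of neurons and cause a small brain.

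Counts in genes ranged from 12724511 to 16684038 per library, and each member had between 109 and 2695 counts in each library. All 41 passed the filter on low counts. Levels are given as CPM, which are counts scaled to a common library size, and where single libraries are listed they stand in the order of replicates 1, 2 and 3. Marker levels of other cell types differed between libraries. The summed level of 10 inhibitory neuron markers was 321 to 1192 CPM in Scr and 181 to 421 CPM in Mir, with Scr replicate 2 the highest. That of 10 endothelial markers was 16.4 to 218 CPM in Scr and 4.66 to 41.5 CPM in Mir, and that of 10 microglia markers was 20.6 to 81.3 CPM and 10.1 to 56.9 CPM. None of these markers was at 0 in all 6 libraries. All 11 radial glia markers, all 8 intermediate progenitor markers and all 12 cortical neuron markers were measured, with summed levels of 1691 to 3127, 1518 to 3338 and 4795 to 6789.5 CPM. In such bulk libraries, fewer cells of a type and less RNA per cell cannot be told apart.

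Most centrosome and microcephaly genes had slightly higher levels in Mir than in Scr, and none passed the test across all genes. Of the 41 genes, 35 had a higher mean in Mir and 6 a lower mean, while 48.8% of all 16897 genes tested had a higher mean. The median log2 fold change (Mir over Scr) was 0.24, against -0.01 over all genes tested. Since the members were chosen with earlier results of these data known, this contrast is a description only. With the quasi-likelihood test of edgeR (adjusted p under 0.05), 0 of the 41 genes were called higher and 0 were called lower, and 0.00592% of all genes were called in either direction. The smallest adjusted p among the members was 0.198, for Wdr62. At an unadjusted p under 0.05, 10 members were higher and 0 lower, against 6.57% and 7.93% of all genes. The 3 Mir libraries lay wholly above the 3 Scr libraries for 13 members and wholly below for 1, which held for 9.72% and 10.3% of all genes. DESeq2, the tool named in the submitters' processing notes, called 2 members higher (Wdr62 and Odf2) and 0 lower, against 1.46% and 1.97% of all genes, and limma-voom called 0 members and 0% of all genes. For 3612 of the 16897 genes DESeq2 gave no adjusted p, so they could not be called, but its shares count them. All 41 members had an adjusted p. With single libraries left out, DESeq2 called 4, 1 and 1 members in either direction without Scr replicates 1, 2 and 3, against 4.17%, 2.92% and 1.77% of all genes. Without Mir replicates 1, 2 and 3 it called 2, 0 and 3 members, against 1.30%, 0.680% and 6.49%. These shares, too, are over all genes tested, with or without an adjusted p.

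**Figure D1:**
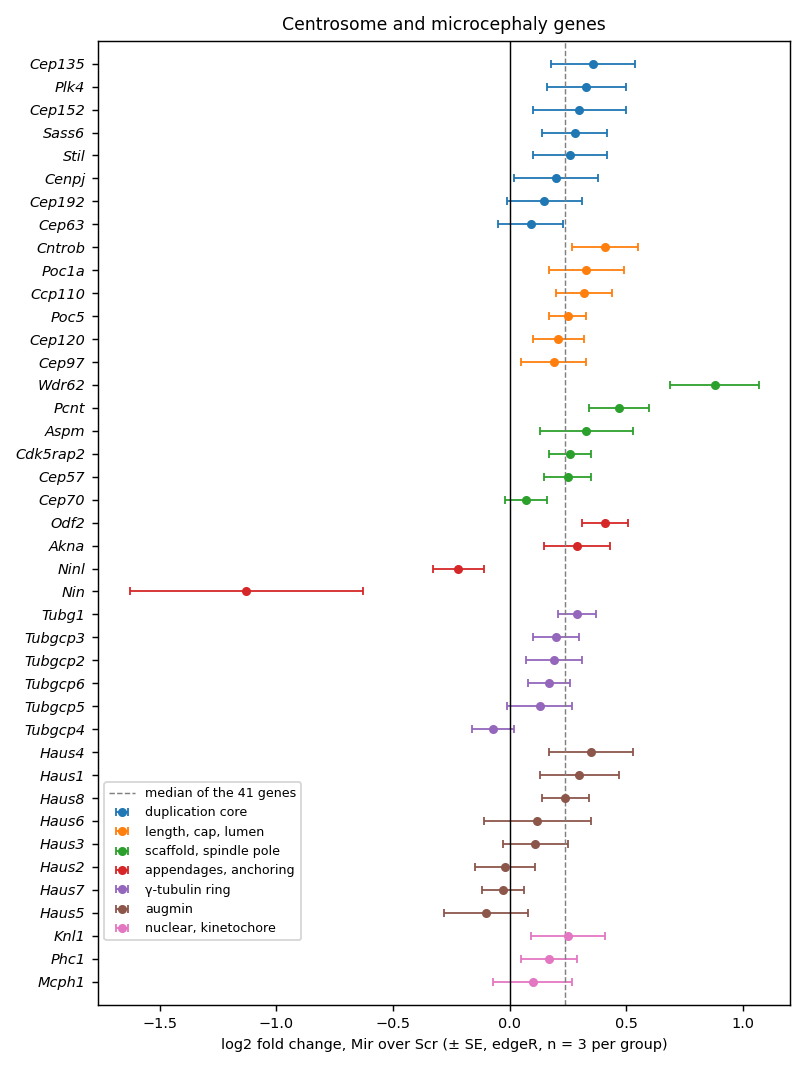
Log2 fold change of each of the 41 genes, Mir over Scr, with a standard error derived from the edgeR F statistic (x axis; 3 libraries per group), grouped and coloured by the role of the protein. Of the 41 points, 35 lie right of 0 around a median of 0.24, with Wdr62 at 0.88 and Nin at -1.13 standing farthest out.

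Differences were small, and a single control library weighed on them. For 39 of the 41 genes the log2 fold change was within 0.5 of 0, with a median standard error of 0.14. Relative to the Scr mean, the median log2 level of the members was 0.08, -0.14 and 0.04 in the Scr libraries and 0.20, 0.22 and 0.24 in the Mir libraries, so that the groups did not overlap in this summary. Scr replicate 2 was the lowest of the 6 libraries for 27 of the 41 members, whereas it was the lowest for 21.6% of all genes tested. Mir replicates 1, 2 and 3 were the highest library for 8, 11 and 12 members, against 13.9%, 17.5% and 14.6% of all genes tested. Without Scr replicate 2 the members' median was 0.18, with 32 of 41 means higher, and with Mir replicate 3 left out as well it was 0.15.

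**Figure D2:**
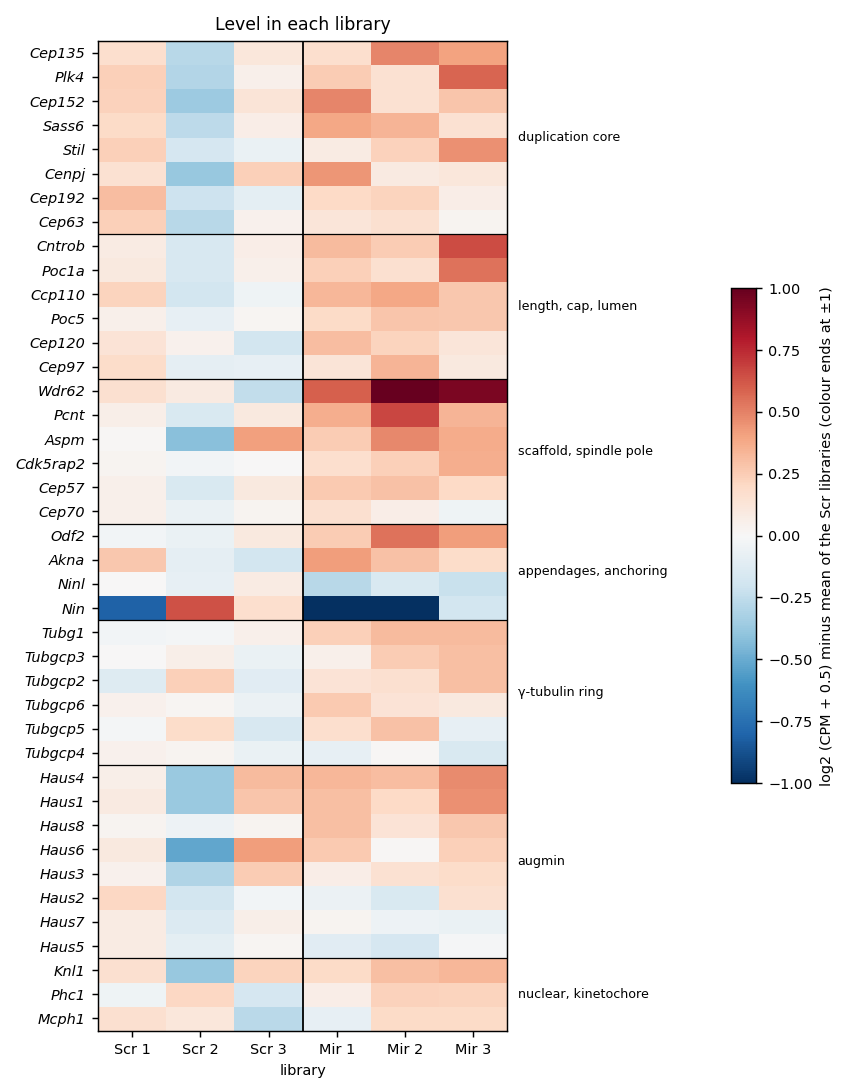
Level of each gene (rows, by role) in each library (columns), as log2 (CPM + 0.5) minus the mean of the 3 Scr libraries, with colours ending at -1 and 1. The Scr 2 column is blue for most rows, the Mir columns are mostly red, and Nin is dark blue in Mir 1 and Mir 2.

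Means were higher in Mir for all 8 genes of the duplication core, whose median log2 fold change was 0.27, and 0 passed the test. Plk4, the kinase that starts centriole duplication, was at 86.7, 59.7 and 75.9 CPM in the Scr libraries and at 87.4, 81.2 and 110.1 CPM in the Mir libraries. Mir replicate 3 was the highest and Scr replicate 2 the lowest, and Mir replicate 2 lay below Scr replicate 1, so the groups overlapped (0.33 ± 0.17, edgeR adjusted p 0.414). Plk4 was at 0.19 without Scr replicate 2, at 0.17 without Mir replicate 3 and at 0.05 without both. Sass6, the cartwheel protein, was at 41.2, 30.1 and 37.9 CPM in Scr and 47.3, 45.7 and 40.0 CPM in Mir, again with an overlap at the edge, since Mir replicate 3 lay just below Scr replicate 1. Its log2 fold change was 0.28 ± 0.14, and 0.16 without Scr replicate 2. Of the 50-base words of the Sass6 transcript, 11.4% also occur in Trmt13 on the opposite strand. Over all annotated exons of Sass6, overlaps with Gm42893 and Trmt13 on that strand add up to 30.9% of the bases, so its counts are uncertain. Cep135, which links the cartwheel to the microtubules of the centriole wall, was at 17.0, 12.3 and 16.3 CPM in Scr and 17.0, 21.3 and 20 CPM in Mir (0.36 ± 0.18, edgeR adjusted p 0.407). Its lowest Mir library and its highest Scr library met at 17.0 CPM, and it was the sole duplication gene counted as not overlapping. Without Scr replicate 2 its value was 0.22. The other 5 genes were at 0.30 for Cep152 and 0.15 for Cep192, which recruit PLK4, 0.26 for Stil, 0.20 for Cenpj, which sets centriole length, and 0.09 for Cep63. In Scr the 8 genes were lowest in replicate 2, with a summed level of 249 CPM against 355 and 316 CPM in Scr replicates 1 and 3 and 349 to 369.7 CPM in Mir. Mir replicates 1, 2 and 3 were at 363, 349 and 369.7 CPM, and Scr replicate 1 lay inside that range. Without Scr replicate 2 the median of the 8 genes was 0.15, and with Mir replicate 3 left out as well it was 0.09.

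The 6 genes of centriole length, cap and lumen were also all higher on average, at a median of 0.29. For 4 of them the Mir libraries all lay above the Scr libraries, which held for 9.72% of all genes. Cntrob encodes centrobin, a protein of daughter centrioles. It was at 46.6, 39.3 and 46.2 CPM in Scr and 54.8, 52.2 and 69.2 CPM in Mir (0.41 ± 0.14, edgeR adjusted p 0.268), and every Mir library lay above every Scr library. Its value was 0.26 without Mir replicate 3 and 0.20 with Scr replicate 2 left out as well. Poc5, a protein of the centriole lumen, was at 71.0, 64.8 and 69.4 CPM in Scr and 78.2, 82.8 and 82.4 CPM in Mir (0.25 ± 0.08, edgeR adjusted p 0.274), likewise without overlap. Of the 50-base words of the Poc5 transcript, 30.3% also occur in the neighbouring gene Ankdd1b on the opposite strand, so its counts are uncertain. Ccp110, the cap protein that holds back cilium growth, was at 95.0, 71.9 and 79.2 CPM in Scr and 103, 107 and 98.1 CPM in Mir, with no overlap (0.32 ± 0.12, edgeR adjusted p 0.287). Its partner Cep97 was at 0.19 ± 0.14 with an overlap. Poc1a was at 0.33 ± 0.16, with no overlap, and at 0.19 without Mir replicate 3. The lowest value of Poc1a over the alternatives was 0.12. Cep120 was at 0.21 ± 0.11. The summed level of the 6 genes was 327, 278 and 291 CPM in Scr and 359.9, 365 and 369 CPM in Mir. All 3 Mir sums lay above all 3 Scr sums.

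The pericentriolar scaffold and spindle pole genes held the member with the greatest upward difference. Means were higher for all 6, and their median was 0.30, or 0.20 with Scr replicate 2 and Mir replicate 3 left out. Wdr62, a spindle pole protein and the second most frequent cause of primary microcephaly after ASPM, was at 13.4, 12.7 and 10 CPM in Scr and 18.3, 24.5 and 23.5 CPM in Mir. Every Mir library lay above every Scr library, and the means (± SD, n = 3) were 12 ± 1.81 CPM and 22.1 ± 3.30 CPM, a ratio of 1.84. The log2 fold change was 0.88 ± 0.19 (adjusted p 0.198 in edgeR, 0.00527 in DESeq2). The gene lies at chr7:30240138-30280419 on the minus strand (GRCm38), and its exons share 264 bases with Thap8 on the opposite strand. Its fold change ranged from 0.76 to 1.00 over the alternatives, and its DESeq2 adjusted p, which lay between 0.00584 and 0.138 when single libraries were left out, was 0.0608 without Scr replicate 3 and 0.138 without Mir replicate 2.

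Pcnt encodes pericentrin, the scaffold of the matrix, and was at 43.5, 37.5 and 44.7 CPM in Scr and 53.8, 66.6 and 53.1 CPM in Mir. The groups did not overlap (0.47 ± 0.13, adjusted p 0.224 in edgeR and 0.0552 in DESeq2). Cdk5rap2, which binds the γ-tubulin ring complex to that scaffold, was at 47.1, 45.0 and 46.1 CPM in Scr and 52.0, 54.5 and 59.1 CPM in Mir (0.26 ± 0.09, edgeR adjusted p 0.288). Its Scr libraries lay within 3 CPM of each other, and all Mir libraries were above them. Cep57, a matrix protein, was at 93.3, 81.1 and 96.9 CPM in Scr and 108, 111 and 104 CPM in Mir (0.25 ± 0.10, edgeR adjusted p 0.307), with no overlap. Aspm, the most frequent cause of primary microcephaly, was at 83.1, 61.3 and 109.5 CPM in Scr and 98.2, 115 and 107 CPM in Mir. Scr replicate 3 lay above Mir replicates 1 and 3, so the groups overlapped (0.33 ± 0.20, edgeR adjusted p 0.479), and the value was 0.14 with Scr replicate 2 left out and 0.57 with Scr replicate 3 left out. Cep70, the gene of this group nearest to 0, was at 109, 99.8 and 107 CPM in Scr and 118, 111 and 102 CPM in Mir, with an overlap (0.07 ± 0.09, edgeR adjusted p 0.777).

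**Figure D3:**
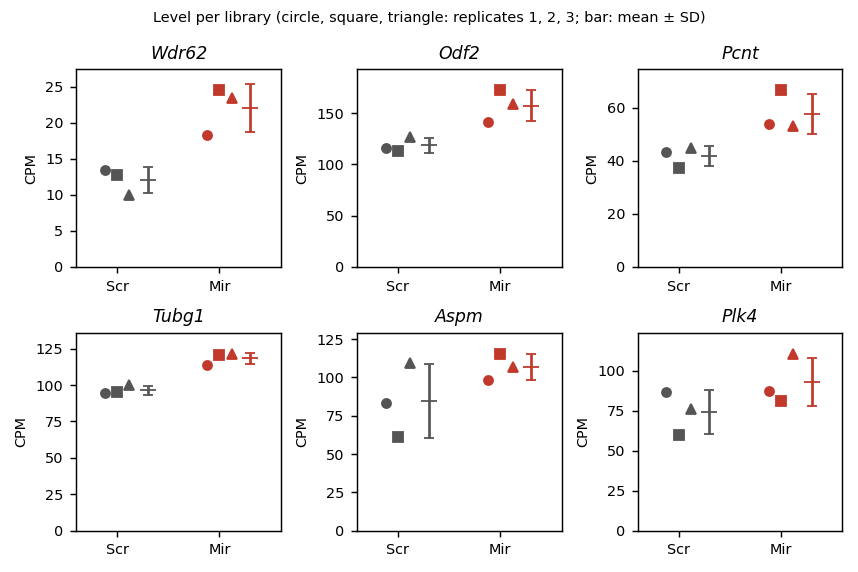
CPM (y axis, from 0) of 6 genes in the 3 Scr and 3 Mir libraries, with a symbol for each replicate and the mean ± SD beside them. The groups do not overlap for Wdr62, Odf2, Pcnt and Tubg1, and they overlap for Aspm (61.3 to 109.5 CPM in Scr) and Plk4.

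Genes of the cell cycle often share promoter elements. Whether such elements bear on the fold changes here was not tested. Promoters of 4 of the 41 genes, chosen by hand, are shown. They are RefSeq promoters on GRCm38.p6, from 150 bases before the start site to 20 after it, 5′ to 3′ on the gene's strand. Capitals mark, on either strand, the word CCAAT, the word GCGGGAA, which is a form of the E2F site, and the word TTTGAA, which is a form of the cell cycle genes homology region (CHR).
Wdr62 (chr7:30280391-30280560, minus strand): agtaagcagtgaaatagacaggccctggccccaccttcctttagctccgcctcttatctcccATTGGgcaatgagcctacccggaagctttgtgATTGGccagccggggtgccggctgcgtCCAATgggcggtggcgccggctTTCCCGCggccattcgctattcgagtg
Pcnt (chr10:76442893-76443062, minus strand): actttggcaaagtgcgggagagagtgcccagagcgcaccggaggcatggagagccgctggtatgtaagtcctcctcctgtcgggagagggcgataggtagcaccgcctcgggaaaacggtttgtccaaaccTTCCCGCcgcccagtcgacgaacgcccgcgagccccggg
Aspm (chr1:139454623-139454792, plus strand): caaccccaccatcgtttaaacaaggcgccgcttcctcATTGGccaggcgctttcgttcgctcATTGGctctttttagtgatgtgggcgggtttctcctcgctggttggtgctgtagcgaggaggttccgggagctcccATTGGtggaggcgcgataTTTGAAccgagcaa
Plk4 (chr3:40799801-40799970, plus strand): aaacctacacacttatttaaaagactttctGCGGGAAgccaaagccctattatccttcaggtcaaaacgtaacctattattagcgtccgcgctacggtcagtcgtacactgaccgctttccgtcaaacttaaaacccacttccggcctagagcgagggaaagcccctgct
In the stretches printed, Wdr62 held CCAAT and the E2F word, Pcnt and Plk4 the E2F word, and Aspm CCAAT and the CHR word. The table held promoters of 34 of the 41 genes, each 300 bases long (250 before and 50 after the start). Wdr62 has more than 1 start in that table, and the first by coordinate is shown. On both strands, 11 of the 34 genes (32.4%) had the E2F word, 15 (44.1%) CCAAT and 8 (23.5%) the CHR word. Some had none of these words, such as Ccp110, Cenpj, Haus8 and Phc1. Counted by promoter, since some genes have several, the shares were 30.2%, 46.5% and 23.3% of 43 member promoters. Of the 14020 promoters of genes tested here, 8.07%, 37.7% and 12.2% had them, and of all 32851 promoters 4.6%, 37.4% and 17.9%. These differences were not tested. Matches of different words did not overlap in these promoters. A match describes the letters in the window and not a site in use.

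The 4 genes of the mother centriole appendages and of microtubule anchoring differed in direction, and their median was 0.03, ranging from -0.01 to 0.08 over the alternatives. Odf2, a component of the appendages that is needed to make them, was at 116, 113 and 127 CPM in Scr and 141, 172 and 159 CPM in Mir. The groups did not overlap, and the ratio of their means was 1.32 (log2 fold change 0.41 ± 0.10, adjusted p 0.213 in edgeR and 0.0265 in DESeq2). Odf2 lies at chr2:29889221-29931746 on the plus strand. The DESeq2 adjusted p of Odf2 was 0.0756 without Scr replicate 1, 0.0725 without Scr replicate 2, 0.276 without Mir replicate 2 and 0.0684 without Mir replicate 3, against 0.0187 and 0.0399 without Mir replicate 1 and Scr replicate 3. Akna anchors microtubules at the centrosome of delaminating cortical progenitors. It was at 93.3, 72.3 and 67.9 CPM in Scr and 103, 94.6 and 87.3 CPM in Mir (0.29 ± 0.14, edgeR adjusted p 0.385), and Mir replicate 3 lay below Scr replicate 1. Its value was 0.44 without Scr replicate 1 and 0.21 without Scr replicate 3, the ends of its range over the alternatives. Ninl, a relative of ninein, was at 30, 28.5 and 31.9 CPM in Scr and 24.6, 27.1 and 25.9 CPM in Mir (-0.22 ± 0.11, edgeR adjusted p 0.422). It was the sole member whose Mir libraries all lay below the Scr libraries.

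Nin encodes ninein, which anchors microtubules at the subdistal appendages of the mother centriole, and it had the widest relative spread within both groups of all 41 members. The gene lies at chr12:70011435-70113717 on the minus strand. It was at 19.0, 52.9 and 37.9 CPM in the Scr libraries and at 9.98, 10.6 and 29.7 CPM in the Mir libraries. The means (± SD, n = 3) were 36.6 ± 17.0 CPM and 16.8 ± 11.2 CPM, and Mir replicate 3 lay above Scr replicate 1, so the groups overlapped. The log2 fold change was -1.13 ± 0.50 with an edgeR adjusted p of 0.356, and it was -1.84 without Mir replicate 3 and -0.77 without Scr replicate 2. DESeq2 called Nin lower without Mir replicate 3 (adjusted p 0.000335) and without Scr replicate 1 (adjusted p 0.0463), but not with all libraries (adjusted p 0.379). Markers of other cell types also differed between the libraries. The 10 inhibitory neuron markers summed to 321, 1192 and 448 CPM in Scr and 194, 181 and 421 CPM in Mir. Here too Scr replicate 2 was the highest, Mir replicates 1 and 2 were the lowest, and Mir replicate 3 lay above Scr replicate 1. The 10 endothelial markers summed to 91.1, 218 and 16.4 CPM in Scr and 4.96, 4.66 and 41.5 CPM in Mir, and the 10 microglia markers to 20.6, 61.5 and 81.3 CPM and to 10.1, 12.9 and 56.9 CPM. Mir replicates 1 and 2 were the lowest libraries for both lists, as for Nin, but Scr replicate 3 did not follow Nin, since it was below Mir replicate 3 for the endothelial list and the highest library for the microglia list. All 10 inhibitory neuron markers, all 9 endothelial markers that were tested and all 10 microglia markers had lower means in Mir, at medians of -1.54, -2.47 and -1.46, and edgeR called 0 of them. DESeq2 called 0 of those with an adjusted p. It gave none for the endothelial markers Tek, Cdh5 and Emcn and the microglia markers P2ry12, Trem2, Aif1, Tyrobp and Fcer1g. The part of these cells in the level of Nin was not tested.

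**Figure D4:**
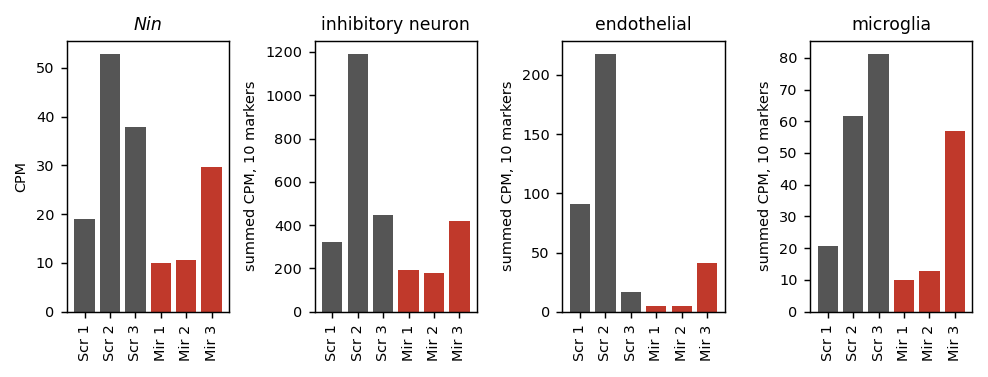
CPM of Nin and summed CPM of 10 markers each of inhibitory neurons, endothelial cells and microglia (y axes, from 0) in the 6 libraries, grey for Scr and red for Mir. Mir 1 and Mir 2 are the 2 lowest bars in all 4 panels, and Scr 2 is the highest for Nin (52.9 CPM), inhibitory neurons (1192 CPM) and endothelial cells (218 CPM).

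In the γ-tubulin ring complex, means were higher for 5 of 6 genes, and the median was 0.18. Tubg1, the main γ-tubulin gene, was at 94.5, 95.0 and 100.1 CPM in Scr and 114, 120.3 and 121 CPM in Mir. All Mir libraries lay above all Scr libraries (0.29 ± 0.08, adjusted p 0.224 in edgeR and 0.0530 in DESeq2), and the value stayed between 0.26 and 0.33 over the alternatives. Of its 50-base words, 14.1% also occur in another gene, mostly its paralog Tubg2, so part of its counts is uncertain. Tubgcp3, a subunit of the small γ-tubulin complex that builds the ring, was at 71.0, 74.0 and 67.7 CPM in Scr and 73.5, 84.1 and 87.3 CPM in Mir (0.20 ± 0.10, edgeR adjusted p 0.388), with Mir replicate 1 just inside the Scr range. Tubgcp2, the other subunit of the small complex, was at 0.19 ± 0.12. Tubgcp6 was at 0.17 ± 0.09, with no overlap of the groups but 10.9% of its words in other genes, mostly Selenoo, and Tubgcp5 was at 0.13 ± 0.14. Tubgcp4 was at -0.07 ± 0.09, and 47.9% of its words also occur in Trp53bp1 on the opposite strand. Scr replicate 2, which was low for the duplication core, was the highest Scr library for the ring genes, with summed levels of 472, 505 and 458 CPM in Scr and 517, 542 and 528 CPM in Mir.

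The augmin complex showed no common direction. Of its 8 genes, 5 were higher and 3 were lower on average, and their median was 0.12. Over the alternatives the median ranged from -0.07, with Scr replicate 2 and Mir replicate 3 left out, to 0.26, with Scr replicate 3 left out. It was -0.06 with Scr replicate 2 alone left out and 0.07 with Mir replicate 3 alone left out. Haus7 was at 92.9, 79.5 and 91.0 CPM in Scr and 89.3, 84.4 and 83.7 CPM in Mir (-0.03 ± 0.09, edgeR adjusted p 0.903). All 3 Mir libraries lay inside the Scr range. Haus8, the microtubule binding subunit, was at 43.5, 41.2 and 43.6 CPM in Scr and 52.7, 47.2 and 51.6 CPM in Mir (0.24 ± 0.10, edgeR adjusted p 0.321), and was the sole augmin gene whose groups did not overlap. Haus4 was at 25.7, 19.0 and 30.9 CPM in Scr and 31.2, 30.9 and 34.4 CPM in Mir (0.35 ± 0.18, edgeR adjusted p 0.423), with Scr replicate 2 far below the rest. Its value was 0.18 without that library and 0.53 with Scr replicate 3 left out instead. Haus6, which contacts the γ-tubulin ring, was at 34.8, 22.4 and 43.7 CPM in Scr and 38.9, 32.8 and 38.4 CPM in Mir, and its Scr libraries spanned the Mir range on both sides. Haus1, Haus3 and Haus2 were at 0.30 ± 0.17, 0.11 ± 0.14 and -0.02 ± 0.13. Haus5 was at -0.10 ± 0.18, and its counts are uncertain because 78.3% of its words occur in another gene, mostly Gm21982, which overlaps it on the same strand.

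The 3 nuclear and kinetochore genes of microcephaly were higher on average, at a median of 0.17, and their groups overlapped. Knl1, a kinetochore scaffold, was at 85.9, 58.7 and 89.5 CPM in Scr and 87.8, 94.5 and 96.6 CPM in Mir (0.25 ± 0.16, edgeR adjusted p 0.502). Scr replicate 2 was the low library again, and the value was 0.08 without it and 0.05 with Mir replicate 3 left out as well. Phc1, a Polycomb protein, was at 90.4, 108 and 82.5 CPM in Scr and 97.7, 109 and 109 CPM in Mir (0.17 ± 0.12, edgeR adjusted p 0.544), and here Scr replicate 2 was the highest Scr library. Its value was 0.28 without that library and 0.09 without Scr replicate 3. Mcph1, which restrains chromosome condensation before mitosis, was at 0.10 ± 0.17. Counted across roles, the 12 members linked to primary microcephaly (Aspm, Wdr62, Cdk5rap2, Cenpj, Stil, Cep135, Cep152, Cep63, Sass6, Mcph1, Knl1 and Phc1) were all higher on average, between 0.09 and 0.88 around a median of 0.26. Their summed level was 573, 472 and 566 CPM in Scr and 614, 653 and 646 CPM in Mir, with no overlap.

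Other genes of the same structures and disorders also had mostly higher means. Of 45 other genes of the centriole, its satellites and the centrosome, 36 were higher and 9 lower on average (median 0.15), and edgeR called 0 in either direction. The 3 with the smallest p were Cep131, a satellite protein (0.56 ± 0.12), Spice1, which acts in centriole duplication (0.69 ± 0.15), and Cep250, the linker between the centrioles (0.96 ± 0.22), with edgeR adjusted p-values of 0.198, 0.198 and 0.208. Of 26 other genes of primary microcephaly and of Seckel syndrome, a related disorder of growth and head size, 22 were higher and 4 lower on average (median 0.26), and edgeR again called 0 in either direction. Those with the smallest p were the condensin genes Ncapd2 (0.72 ± 0.12) and Ncaph (0.48 ± 0.12) and the nuclease gene Dna2 (0.68 ± 0.17), with edgeR adjusted p-values of 0.167, 0.213 and 0.212. DESeq2 called 7 of the 45 and 3 of the 26 higher, and 0 lower in both lists, against 1.46% higher and 1.97% lower of all genes.

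Cell cycle and progenitor genes also had higher means. This held for all 18 G2/M genes (median 0.37) and all 18 G1/S genes (median 0.35), and edgeR called 0 of each. By DESeq2, 1 of the G2/M list and 4 of the G1/S list were called higher, against 1.46% of all genes. The G2/M genes with the smallest p were Tpx2 (0.65 ± 0.18), Kif20a (0.47 ± 0.14) and Ect2 (0.41 ± 0.13), with edgeR adjusted p-values of 0.231, 0.244 and 0.250. The DESeq2 adjusted p of Tpx2 was 0.0239. Those of G1/S were E2f1 (0.72 ± 0.10), Rrm1 (0.57 ± 0.11) and Mcm2 (0.44 ± 0.12), with edgeR adjusted p-values of 0.159, 0.178 and 0.224 and DESeq2 adjusted p-values of 1.21e-05, 0.00112 and 0.0384. Relative to the Scr mean, the G2/M genes had median log2 levels of 0.09, -0.40 and 0.30 in Scr and 0.34, 0.27 and 0.57 in Mir, so that Scr replicate 2 was low here too and Scr replicate 3 lay above Mir replicate 2. All 8 intermediate progenitor markers and 10 of 11 radial glia markers were higher on average (medians 0.56 and 0.19), and 10 of 12 cortical neuron markers were lower (median -0.33), with 0 called by edgeR. DESeq2 called 3 intermediate progenitor markers and 1 radial glia marker higher and 3 cortical neuron markers lower. Over all genes it called 1.46% higher and 1.97% lower. The part of these shifts in the levels of the centrosome genes was not tested.

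Levels between genes were compared in Scr as CPM per kb, on the length of the longest-coding transcript and on the length of all annotated exons. On the transcript scale, Haus7 was highest at 63.6 ± 5.25 CPM per kb, followed by Tubg1 at 53.6 ± 1.73 (SD, n = 3), and their order was the same on the exon scale, at 61.1 ± 5.04 and 42.6 ± 1.38. Haus1 came next on the transcript scale, at 42.3 ± 9.46, but was at 7.23 ± 1.62 on the exon scale, so that its place rests on the length used. Cep70 and Odf2 followed at 40.3 ± 1.82 and 37.3 ± 2.25 on the transcript scale. The mean ± SD ranges of Haus1, Cep70 and Odf2 overlapped, but all genes share the same libraries, and differences within each library were not tested. At the low end of the transcript scale, Wdr62 was at 2.53 ± 0.382, Cep135 at 2.75 ± 0.457 and Cep152 at 2.38 ± 0.505. Their mean ± SD ranges overlapped, and here too differences within each library were not tested. Within the γ-tubulin ring, Tubg1 stood above the subunits Tubgcp2 (29.9 ± 4.53), Tubgcp4 (28.3 ± 1.21), Tubgcp3 (18.7 ± 0.832), Tubgcp5 (11.9 ± 1.48) and Tubgcp6 (7.47 ± 0.262) on this scale. Augmin subunits, which are present in equal numbers in the complex, ranged from 3.90 ± 0.267 for Haus5 to 63.6 ± 5.25 for Haus7. The Haus5 level is uncertain, since 78.3% of its 50-base words occur in other genes, and the next lowest subunit was Haus6 at 5.47 ± 1.74. Plk4 was at 21.3 ± 3.91, above its recruiters Cep192 (3.88 ± 0.765) and Cep152.

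**Figure D5:**
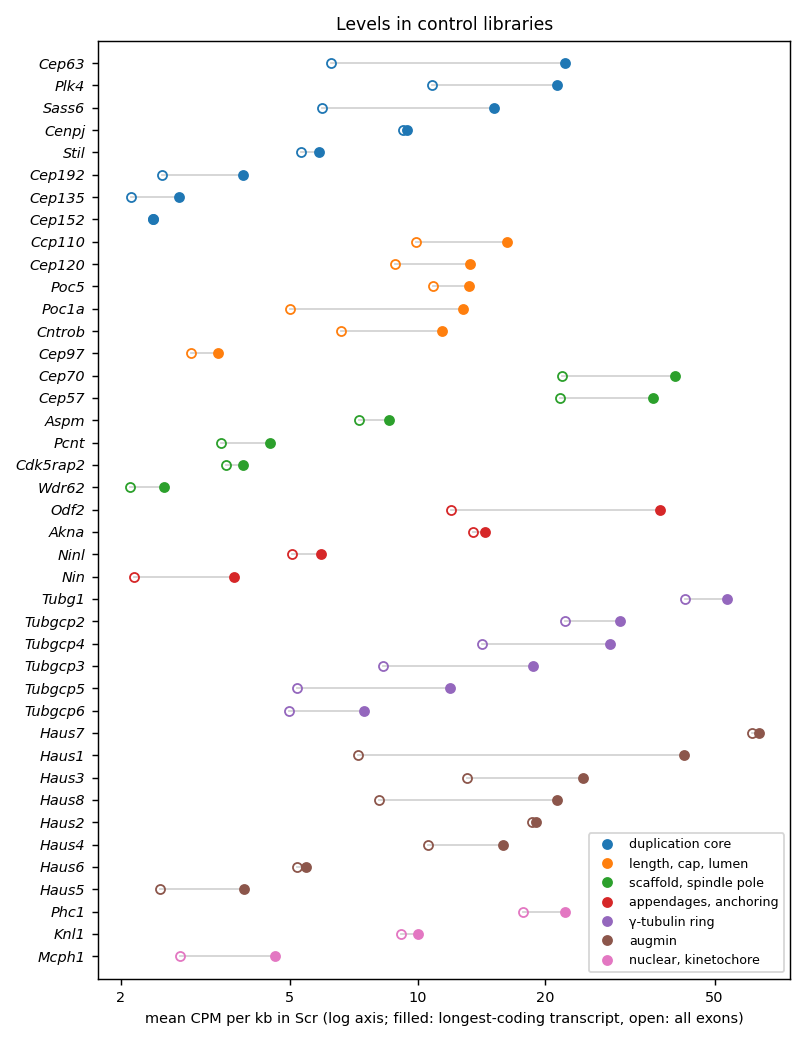
Mean CPM per kb of the 41 genes in the 3 Scr libraries (x axis, log scale), by role, on the length of the longest-coding transcript (filled) and of all annotated exons (open). Haus7 and Tubg1 lie farthest right on both scales, and Haus1 shows the widest gap between them, 42.3 against 7.23.

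Matches to the seed of the hairpin were looked for in the members' 3′ UTRs, taken from each gene's longest-coding transcript. Which strand of the hairpin was loaded was not measured. The strand after the loop of the oligonucleotide given in the labels is shown with its seed, bases 2 to 8, in capitals, followed by the members' matches to all of these bases, each in a stretch of 30 bases with the match in capitals.
Hairpin strand: gCATGTGAtgaagcaaatcag
Cep63: gcagacttttcTCACATGAatgtttattac
Mcph1: agggcttgaagTCACATGtcactttgtgtg
Cep97: gctcttgttagTCACATGgtaagggatgga
Haus6: attatttatttTCACATGtaggatattttt
Cep63 alone had the 8-base form, TCACATGA, and the other 3 had TCACATG. Another 4 members, Cep135, Knl1, Tubgcp4 and Haus2, held the weaker form CACATGA. In all, 8 of the 41 members (19.5%) had a match, against 17.3% of 12739 genes tested with a 3′ UTR. The log2 fold changes of these 8 were 0.09 for Cep63, 0.10 for Mcph1, 0.19 for Cep97, 0.12 for Haus6, 0.36 for Cep135, 0.25 for Knl1, -0.07 for Tubgcp4 and -0.02 for Haus2. Their median was 0.11, against 0.25 for the 33 members without a match, and their 3′ UTRs were longer, with medians of 1934 and 434 nt. Over all genes tested the medians were -0.03 with and 0.00 without a match. Neither Nin nor Ninl, the members with the greatest downward differences, had a match in the transcript searched. The 3′ UTRs of other transcripts were not searched, and whether the hairpin acts on any member was not tested.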

How the data were processed

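Libraries were prepared by SMART-seq v4, a kit that does not record strand, from RNA of integrity number over 9.5, and sequenced as single reads of 50 bp, per the labels' protocols. The authors deposited raw read counts for each gene. The submitters' processing notes list HISAT2 2.1.0 and HTSeq 0.11.0, besides DESeq2 1.18.1, with build mm10 (GRCm38). The sources used here give neither the annotation nor the strand setting. Of all listed reads, 21.9 to 23.6% fell in genes and 39.3 to 44.4% had no unique alignment, and the summary lines were left out. Symbols, exons and 3′ UTRs came from GENCODE M21.

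Counts were tested with edgeR 4.0.16 in R 4.3.3 (quasi-likelihood F test, two-sided, group as sole term, TMM factors 0.992 to 1.01, filterByExpr, Benjamini-Hochberg over 16897 genes, threshold 0.05). Fold changes are given ± standard error and levels ± SD. The standard error was derived as the absolute log2 fold change divided by the square root of the F statistic. Alternatives were DESeq2 1.42.0, limma-voom (limma 3.58.1), other size factors and filters, a replicate term, left-out libraries and, chosen after seeing the data, a second length scale and DESeq2 without each library. The code was tested on simulated data. Libraries of a group differed beyond counting noise (chi-square per degree of freedom 8.18 to 28.7). Separate pools of embryos stand behind each library, and amplified reads are not independent molecules. Of the 41 members, 35 shared fewer than 10% of their 50-base words with other genes. Members and lists were chosen with earlier results of these data known. Levels per library are given for the member of highest level per kb (exon length, mean of all 6 libraries) and the 2 of smallest p in each role group, and for Aspm, Wdr62, Cdk5rap2, Plk4, Nin and Akna; Ninl, Haus6, Cep70 and Ccp110 were added after their values were seen. From each pathway list the 3 genes of smallest p are named. Of the listed symbols, Cep43 and Trappc14 had no match in the annotation.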

Additional observations from a re-analysis of the deposited data

How the results depend on the processing

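Over the 13 alternatives, the members' median log2 fold change stayed between 0.15 and 0.27 and the number with a higher mean between 32 and 37, and 31 of the 35 higher and 4 of the 6 lower members kept their sign. Haus7 ranged from -0.10 to 0.01 when single libraries were left out, at 0.01 without Scr replicate 1 and 0.00 without Scr replicate 3. Cep63, Mcph1, Haus2, Haus3 and Haus6 also changed sign in 1 to 3 alternatives. Members called stayed at 0 higher and 0 lower in every alternative except DESeq2, which called 2 higher. DESeq2 without each library in turn called 0 to 4 members, against 0.680 to 6.49% of all genes. Over all genes, calls were 0 higher and 1 lower by edgeR, 247 and 333 by DESeq2, 0 and 0 by limma-voom, 15 and 16 without a filter on low counts, and 10 and 19 without Scr replicate 2 and Mir replicate 3. Leaving out single libraries gave 0 higher and 0 to 2 lower. With the replicate number as a block, 0 members and 0 genes were called. Same-numbered libraries correlated at 0.25, -0.15 and -0.09 in their deviations from the group means, so the numbers were not taken as pairs, and the cause of the lost call was not tested. The smallest adjusted p of any member ranged from 0.0937 to 0.587 over the alternatives other than DESeq2 (0.00527), and with the block it was 0.265. The common biological coefficient of variation was 23.6%, with 3 libraries per group.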
